A study of Homo sapiens with 6 samples.

Results

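The 10 SR splicing factor genes SRSF1, SRSF2, SRSF3, SRSF4, SRSF5, SRSF6, SRSF7, SRSF9, SRSF10 and SRSF11 were followed through knockdown of N6AMT1, a gene studied as a methyltransferase for adenine in DNA. They were chosen by symbol from the 62438 genes in the deposited count table, and all 10 had a row. The 6 RNA-seq libraries came from a human breast cancer cell line that the labels give as MDA-MB-453. The cells had been transfected for 48 h with 10 nM siRNA, which targeted N6AMT1 in 3 libraries (si-N6AMT1) and was a scrambled control in the other 3 (si-CN). Both groups thus shared the line, the transfection, the dose and the time, and the knockdown was transient in a single labelled line. The labels do not say whether the 3 libraries of a group came from separate cultures, so p-values measure the spread between these libraries, which may be technical.

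SR proteins bind short motifs in exons through RNA recognition motifs and recruit the splicing machinery through a domain rich in arginine and serine. Kinases phosphorylate this domain, which moves the proteins into the nucleus and sets their activity. Many SR genes hold poison exons, which carry an early stop codon, so that a surplus of the protein drives its own mRNA into nonsense-mediated decay (NMD).

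The knockdown and the label of the cells were checked first. N6AMT1 had 6.81 ± 0.145 CPM (the count scaled to library size by TMM, mean ± SD, n = 3) in si-CN and 3.18 ± 0.312 CPM in si-N6AMT1, and it fell by 1.10 on the log2 scale (SE 0.119, edgeR quasi-likelihood test, FDR 3.65e-07). Library totals ran from 19739247 to 21289740 counts. The markers gave a mixed picture for a line known as luminal. SPDEF, a luminal transcription factor and the lowest of its list, was at 0.253 TPM (a level per transcript length, estimated from reference transcript lengths) in si-CN. Chosen after their values were seen, the luminal markers KRT19 and GATA3 stood at 0.797 and 1.92 TPM, and the basal markers KRT5 and TP63 at 763.3 and 93.3 TPM. Other luminal markers were high, led by KRT8 with 747.8 TPM. KRT17 with 4175 TPM was highest and PTPRC, an immune cell marker, with 0.0479 TPM was lowest of the basal, stromal and immune list. The summed TPM of the 9 luminal markers ran from 2055 to 2068 in si-CN and from 2118 to 2129 in si-N6AMT1, with 2 called higher and 1 lower of 8 tested. That of the 9 basal, stromal and immune markers measured ran from 5370 to 5407 in si-CN and from 5410.0 to 5557 in si-N6AMT1, with 4 called higher of 7 tested. By edgeR at an FDR of 0.05, 9.78% of all 17320 genes tested were called higher and 11.5% lower. What part these markers play in the SR gene results was not tested.

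The gene models show what the counts of an SR gene contain. Of the 120 transcripts annotated for the 10 genes (GENCODE on GRCh37), 28 were marked as NMD targets, and each gene had at least 1, up to 6 in SRSF7. The deposited counts sum over all transcripts of a gene, so a shift between productive and decay transcripts cannot be told apart from a change in either. In 6 genes, SRSF3, SRSF4, SRSF6, SRSF7, SRSF9 and SRSF11, the early stop of such a transcript lay in an exon wholly inside an intron of the reference transcript, with 11 such exons in all. The 3 genes that passed the test below had none of this kind, and the stops of their decay transcripts lay in exons that overlap reference exons. The same held for SRSF2, which did not pass. Whether this feature bears on the calls was not tested.

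The sequences below run from the first base of the exon through its stop codon, 5′ to 3′ on the strand of the gene, with the stop codon in capitals. The first 5 are exons inside reference introns, which show how soon after exon entry translation would stop, and the last 3 are from the genes that passed the test. They were read from the GRCh37 genome.
SRSF3, plus strand, chr6:36567598-36567631: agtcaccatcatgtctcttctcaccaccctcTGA
SRSF4, minus strand, chr1:29492521-29492576: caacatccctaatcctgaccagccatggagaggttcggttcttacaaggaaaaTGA
SRSF6, plus strand, chr20:42087793-42087944: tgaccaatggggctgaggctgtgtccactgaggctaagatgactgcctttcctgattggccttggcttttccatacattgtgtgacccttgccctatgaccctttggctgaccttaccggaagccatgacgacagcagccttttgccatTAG
SRSF7, minus strand, chr2:38976461-38976488: gtttcttcgtttgagtcagtcgcctTGA
SRSF11, plus strand, chr1:70697542-70697591: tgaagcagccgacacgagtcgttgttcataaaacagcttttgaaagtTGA
SRSF1, minus strand, chr17:56083108-56083334: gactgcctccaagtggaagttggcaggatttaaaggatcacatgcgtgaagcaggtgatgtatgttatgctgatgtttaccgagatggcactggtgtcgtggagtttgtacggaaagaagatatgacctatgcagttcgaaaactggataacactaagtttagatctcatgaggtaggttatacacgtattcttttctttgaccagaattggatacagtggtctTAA
SRSF5, plus strand, chr14:70236228-70236278: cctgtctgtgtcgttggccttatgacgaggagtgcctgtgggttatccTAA
SRSF10, minus strand, chr1:24298445-24298502: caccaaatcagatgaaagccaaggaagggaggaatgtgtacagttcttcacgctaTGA

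The exons themselves were longer than the stretches printed. In SRSF3 the exon held 456 bases with its stop at base 32, in SRSF7 449 bases with the stop at base 26, and in SRSF6 268 bases with the stop at base 150. The SRSF4 exon had 175 bases and the SRSF11 exon 117 bases. SRSF2 stood apart, because both of its decay transcripts kept the stop codon of the reference transcript.

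All 10 SR genes were well covered, with 2534 to 6002 counts in each library. In si-CN the levels per length, as TPM, ran from SRSF9 with 336.1 ± 5.57 TPM (SD, n = 3) and SRSF5 with 330.3 ± 1.87 TPM to SRSF10 with 57.2 ± 1.23 TPM. In between came SRSF2 with 177.0 ± 4.77, SRSF11 with 158.8 (157.2 to 160.2 over the 3 libraries), SRSF4 with 141.1 ± 1.57, SRSF7 with 123.8 ± 1.68, SRSF3 with 95.4 ± 1.53, SRSF6 with 79.8 ± 0.342 and SRSF1 with 78.7 ± 1.05 TPM. SRSF9 and SRSF5 overlapped in their si-CN libraries, while all other neighbours in this order did not, SRSF6 and SRSF1 being the closest. Much of the order rested on the transcript length used, as the plot of levels under 3 length definitions shows. SRSF10 moved from 57.2 TPM with its reference transcript of 7656 bases to 149.0 TPM with the median length of its protein-coding transcripts, 1808 bases. SRSF6 moved likewise from 79.8 to 185.5 TPM, whereas SRSF3 stayed at 97.4 TPM. Under the longest transcript SRSF4 became the lowest with 50.7 TPM. SRSF9 and SRSF5 were the highest pair under all 3 definitions.

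**Figure D1:**
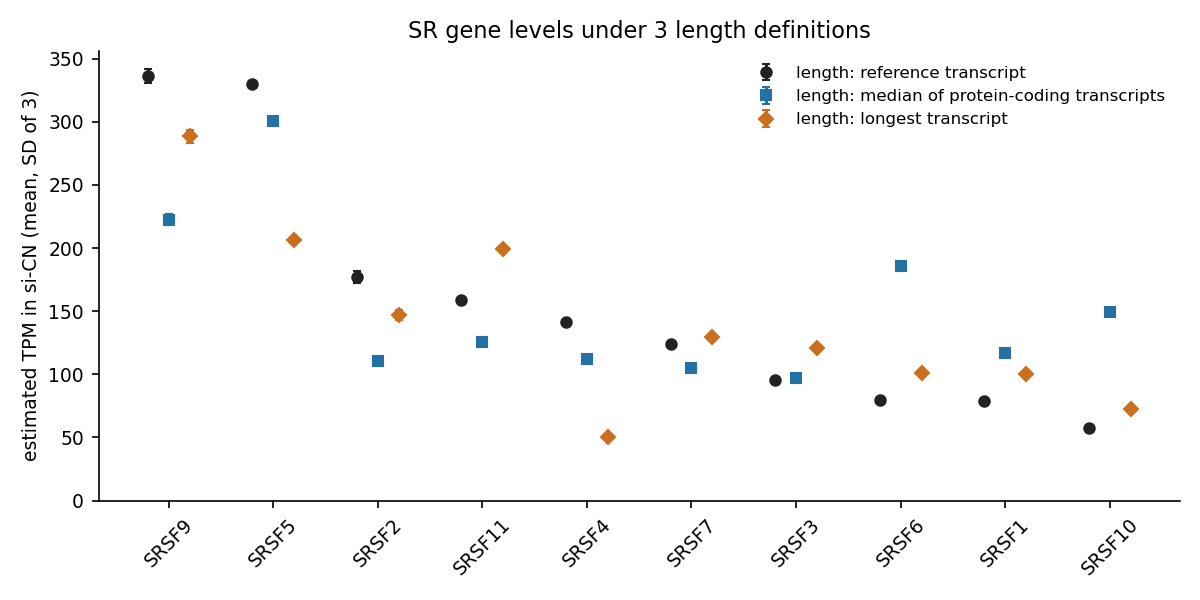
Estimated TPM (vertical axis, linear from 0) of each SR gene in si-CN, as the mean with the SD of 3 libraries, for 3 definitions of gene length. SRSF9 and SRSF5 lie above the other genes throughout, while SRSF10 ranges from 57.2 to 149.0 TPM with the length used.

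Summed over the 10 genes, SR mRNA took 1829.9 ± 19.4 CPM in si-CN and 1840.4 ± 11.3 CPM in si-N6AMT1. The groups overlapped, since si-CN ran from 1817.3 to 1852.3 CPM and si-N6AMT1 from 1828.2 to 1850.5 CPM. Per length, the sum was 1578.2 ± 2.82 TPM in si-CN and 1597.3 ± 20.7 TPM in si-N6AMT1. Here si-N6AMT1 replicate 2 was the lowest of all 6 libraries, and replicates 1 and 3 lay above every si-CN library. Neither sum was tested. Of the 10 genes, 2 were upregulated (SRSF1 and SRSF5), 1 was downregulated (SRSF10) and 7 did not pass the edgeR quasi-likelihood test at an FDR of 0.05. Among all 17320 genes tested 21.3% passed, 9.78% upwards and 11.5% downwards, so that 3 of 10 is near the background. The median log2 fold change of the SR genes was 0.01 and that of all genes 0.00. Every change was small, below 7% in either direction, and the median size of log2 fold change among all genes that passed was 0.18.

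Among the SR proteins with tandem RNA recognition motifs, SRSF1 and SRSF5 rose. SRSF1 promotes exon inclusion, aids mRNA export and translation, and is known as a proto-oncogene in breast epithelium. SRSF1 had 188.8, 189.5 and 189.1 CPM in the 3 si-CN libraries and 198.8, 200.6 and 201.9 CPM in the 3 si-N6AMT1 libraries. All si-N6AMT1 libraries were thus above all si-CN libraries, and the si-CN values lay closer together than those of any other SR gene in either group. Its log2 fold change was 0.08 (SE 0.0231, FDR 0.0109), or 5.99% higher with a 95% confidence interval from 2.52% to 9.57%.

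The call on SRSF1 was lost when counts of an overlapping gene were added to it. ENSG00000266086, a protein-coding gene on the same strand (GRCh37, chr17:56066399-56084607), overlaps SRSF1 (chr17:56078280-56084707), and kallisto divides reads between them by an estimate. ENSG00000266086 had 1634, 1448 and 1562 counts in si-CN and 1547, 1483 and 1522 counts in si-N6AMT1, which is 38.9% of the SRSF1 counts. Its own log2 fold change was -0.03 (SE 0.0419, FDR 0.630). With these counts added to SRSF1, an alternative added after the data had been seen, the log2 fold change of SRSF1 was 0.05 and no longer passed (edgeR quasi-likelihood test, FDR 0.128). Adding counts of a gene that did not rise lowers the fold change however kallisto divided the reads. This alternative therefore cannot tell whether the call rests on that division. SRSF1 also did not pass in DESeq2 on all genes with a count (log2 fold change 0.08, adjusted p = 0.0718). In that fit 16.2% of the 11915 genes given an adjusted p passed.

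SRSF5, an SR protein with tandem motifs close to SRSF4 and SRSF6, had 226.2, 219.4 and 220.9 CPM in si-CN against 239.8, 237.5 and 234.6 CPM in si-N6AMT1. Again no si-N6AMT1 library fell among the si-CN libraries. Its log2 fold change was 0.09 (SE 0.0232, edgeR quasi-likelihood test, FDR 0.00453), or 6.80% higher with a 95% confidence interval from 3.29% to 10.4%. SRSF5 passed in all 17 alternative settings, with log2 fold changes from 0.09 to 0.11.

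The other 3 genes of this kind did not pass. SRSF4, which regulates alternative splice sites, had 149.9, 144.5 and 143.6 CPM in si-CN and 142.8, 142.4 and 140.5 CPM in si-N6AMT1. Its groups did not overlap, but si-CN replicate 1 stood above the other libraries, and the log2 fold change of -0.04 did not pass (FDR 0.309). SRSF6 had 157.5, 155.7 and 155.3 CPM in si-CN and 161.0, 152.3 and 163.4 CPM in si-N6AMT1, where replicate 2 was the lowest of all 6 libraries. SRSF9, a shorter relative of SRSF1, had 178.1, 174.8 and 169.5 CPM in si-CN and 173.5, 171.4 and 177.9 CPM in si-N6AMT1, fully interleaved. The log2 fold changes of SRSF6 and SRSF9 were 0.03 and 0.00 (FDR 0.580 and 0.968). SRSF9 shares its locus with NRAV on the same strand, which held counts equal to 9.26% of those of SRSF9. DYNLL1 and GATC on the opposite strand held counts equal to 65.3% and 34.1% of those of SRSF9. The libraries were stranded, but the strand setting of the counting is not given in the sources used here. Reads of DYNLL1 and GATC may therefore also be divided by estimate.

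Of SRSF2, SRSF3 and SRSF7, each with a single recognition motif, none passed. SRSF2, which activates exon inclusion and is recurrently mutated in myeloid malignancies, had 148.1, 153.2 and 149.6 CPM in si-CN and 152.6, 151.9 and 157.9 CPM in si-N6AMT1. SRSF3, the smallest SR protein and an adaptor for mRNA export, had 186.9, 177.5 and 179.8 CPM in si-CN and 186.2, 187.3 and 186.2 CPM in si-N6AMT1. SRSF7, an export adaptor with a zinc knuckle, had 134.9, 128.7 and 130.0 CPM in si-CN and 127.9, 132.5 and 131.9 CPM in si-N6AMT1. The groups overlapped in each of these genes, for SRSF3 through si-CN replicate 1 alone. The log2 fold changes were 0.04 for SRSF2, 0.04 for SRSF3 and -0.00 for SRSF7 (edgeR quasi-likelihood test, FDR 0.367, 0.287 and 0.945). SRSF2 overlaps MFSD11 on the opposite strand, which held counts equal to 11.3% of its own.

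SRSF10 and SRSF11 are more distant members of the family, and both lay lower in every si-N6AMT1 library. SRSF10 turns into a general repressor of splicing when it is dephosphorylated, for example in mitosis or heat shock. SRSF10 had 195.2, 196.0 and 199.5 CPM in si-CN against 186.1, 181.9 and 181.7 CPM in si-N6AMT1. It was downregulated by 0.10 on the log2 scale (log2 fold change -0.10, SE 0.0239, edgeR quasi-likelihood test, FDR 0.00265), which is a change of -6.97% with a 95% confidence interval from -10.1% to -3.72%. SRSF11, whose protein contacts the U2AF splicing factor, had 286.7, 278.1 and 283.0 CPM in si-CN against 273.7, 270.4 and 274.4 CPM in si-N6AMT1. The groups did not overlap, yet its log2 fold change of -0.05 did not pass (unadjusted p = 0.0335, edgeR quasi-likelihood test, FDR 0.118).

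**Figure D2:**
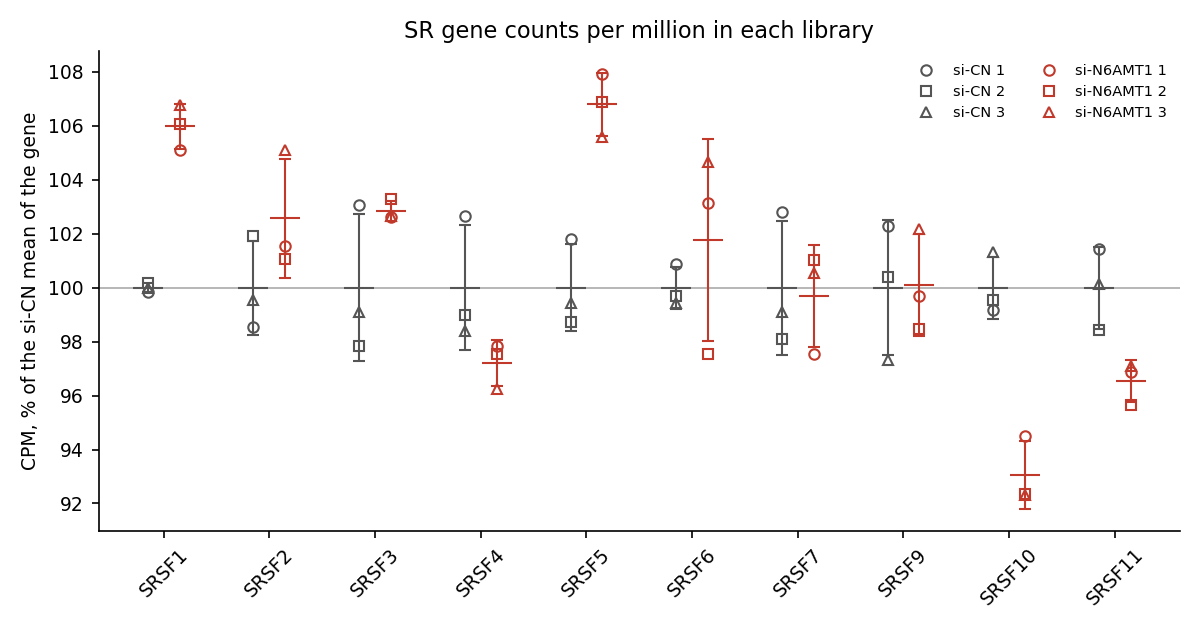
CPM of each SR gene in each library, as percent of the si-CN mean of that gene (linear axis that does not start at 0). Open symbols are single libraries (grey si-CN, red si-N6AMT1) and bars give the mean with SD of 3. Groups stand fully apart in SRSF1 and SRSF5 (higher) and in SRSF4, SRSF10 and SRSF11 (lower), and the other 5 genes overlap.

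In all, the libraries of the groups did not overlap in 5 SR genes, 2 higher and 3 lower, where 34.9% of all genes tested behaved so (16.8% higher, 18.0% lower). For the 7 genes that did not pass, the 95% confidence intervals of the log2 fold change together spanned -0.10 to 0.09, or -6.52% to 6.65%. The interval of each gene was narrower than this joint span, for example -6.36% to 0.934% for SRSF4 and -0.787% to 6.65% for SRSF3. The SD between replicates of a group was 0.176% to 3.67% of the mean, with a median of 1.56%.

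GC content moved with the fold changes across the transcriptome. Over all genes the median log2 fold change was -0.03 in the 4310 genes whose reference transcripts had the lowest GC content and 0.05 in the 4310 genes with the highest. Of the SR genes 6 were in the former set and 0 in the latter, while SRSF5 lay below and SRSF2, SRSF4 and SRSF9 above the median GC content, and SRSF10 was the poorest in GC with 35.9%. With a GC correction per library, added without the block after the data had been seen, SRSF10 had a log2 fold change of -0.07 and stayed just past the threshold (edgeR quasi-likelihood test, FDR 0.0453). With the replicate number as a block in the same fit it was -0.07 and did not pass (FDR 0.0991). SRSF1 and SRSF5, by contrast, rose to 0.11 each under the latter fit and passed (FDR 0.00561 and 0.00663).

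**Figure D3:**
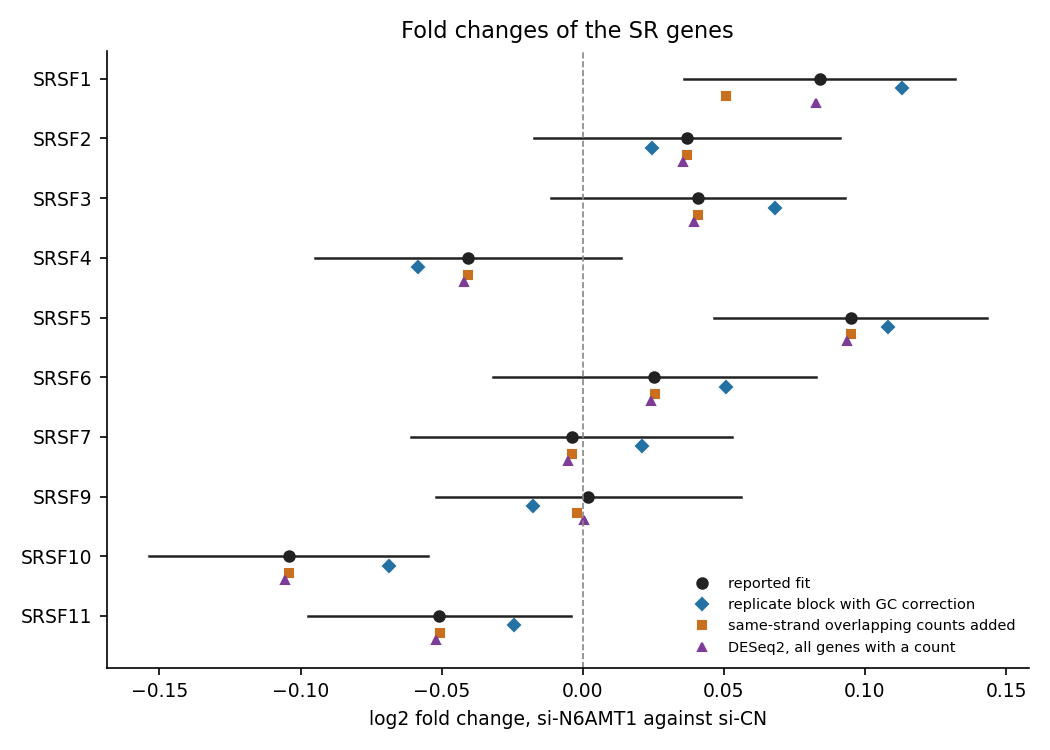
Log2 fold change (horizontal axis) of each SR gene in si-N6AMT1 against si-CN. Black points with bars are the reported fit with its 95% confidence interval, and coloured points are 3 alternatives. The overlapping counts pull SRSF1 from 0.08 to 0.05, and the GC correction with a replicate block moves SRSF10 from -0.10 to -0.07.

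Because the changes ran in opposite directions, the balance between SR genes was read within each library, where library size cancels. The ratio of SRSF1 to SRSF10 counts was 0.961 ± 0.0111 (SD, n = 3) in si-CN and 1.09 ± 0.0227 in si-N6AMT1. The ratio of SRSF5 to SRSF10 was 1.13 ± 0.0267 in si-CN and 1.30 ± 0.00944 in si-N6AMT1. In both ratios every si-N6AMT1 library was above every si-CN library (two-sided exact permutation test, p = 0.1, the smallest that 3 libraries against 3 allow). SRSF1 and SRSF5 were each higher, and SRSF10 lower, in every si-N6AMT1 library. This separation and its p-value were therefore fixed before the test and add no support. The ratio of SRSF1 to SRSF5, the genes that rose together, was 0.851 ± 0.0150 in si-CN and 0.845 ± 0.0160 in si-N6AMT1 (two-sided exact permutation test, p = 0.6). These 3 pairs were chosen after the values had been seen, so the ratios are a description.

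The genes whose profile was most like that of SRSF10, the SR gene with the smallest FDR, were DHX9, an RNA helicase, CTDNEP1, a phosphatase of the nuclear envelope, and BAZ1B, a chromatin remodelling subunit. Likeness was the root mean square difference of centred log2 CPM over the 6 libraries, among 2054 genes within 2-fold of the SRSF10 level. It was 0.0106 for DHX9, 0.0108 for CTDNEP1 and 0.0109 for BAZ1B. Their log2 fold changes were -0.12 each. A value near that of SRSF10 follows from the choice by profile over the same libraries.

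The 3′ UTRs of the SR genes were searched, on the strand of the transcript, for TTCACAT and TCACATA, strings of 7 bases that overlap in TCACAT and that had been picked on these same fold changes in earlier work. Presence is therefore only a description. SRSF1, SRSF3 and SRSF11 held such a string in the reference transcript, 3 of 10, against 22.2% of the 13312 tested protein-coding genes with a 3′ UTR. Windows of 30 bases around each match, with the string in capitals, show that SRSF11 has both strings joined while SRSF3 has them apart.
SRSF1, minus strand, chr17:56078562-56078591: gggctggtgttTTCACATttctgtggtcaa
SRSF3, plus strand, chr6:36571487-36571516: ctttagtattcTCACATAgcctacaacctg
SRSF3, plus strand, chr6:36572200-36572229: acatggcaagaTTCACATttctattaaaag
SRSF11, plus strand, chr1:70718414-70718443: caaaaacaaatTTCACATAtggtaaaccta

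The 3 genes with a match went different ways, SRSF1 with a log2 fold change of 0.08, SRSF3 with 0.04 and SRSF11 with -0.05, and of these SRSF1 passed the test. The SR gene that was downregulated, SRSF10, had the longest 3′ UTR, 6795 bases, and neither string. The UTR of SRSF1 had 4487 bases, longer than 89.4% of those of the genes tested, and that of SRSF5 had 544 bases.

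Genes that work with the SR proteins were read from the same fit, where 21.3% of all genes passed. Among enzymes that modify or import SR proteins, 7 of 13 were lower and 1 higher, and the median log2 fold change was -0.07. The number lower was 2 and 3 in the DESeq2 fits on all genes and on the highest genes, 4 with a replicate block, 3 with the block and GC correction, and 3 to 6 with 1 library left out, being 3 without si-N6AMT1 replicate 2 or 3 and 4 without si-CN replicate 2 or 3. SRPK2, an SR protein kinase, fell from 128.1 ± 1.67 to 118.4 ± 4.45 CPM (log2 fold change -0.11, edgeR quasi-likelihood test, FDR 0.00656). PRPF4B, a kinase of the spliceosome, and TNPO3, the importin of SR proteins, had log2 fold changes of -0.10 and -0.11 (FDR 0.00376 and 0.00848). PPP1CC, a catalytic subunit of protein phosphatase 1, was the gene that rose (log2 fold change 0.07, FDR 0.0221), and 0 genes of this list were higher in both DESeq2 fits, without a filter, with the replicate block, or without si-N6AMT1 replicate 3, si-CN replicate 1 or si-CN replicate 3.

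Among SR-like and SR-related genes, 2 of 19 tested were higher and 5 lower, and the median log2 fold change was -0.02. RNPS1, an activator of splicing in the exon junction complex, rose by 0.15 on the log2 scale and PNN, its partner, by 0.08 (edgeR quasi-likelihood test, FDR 0.000136 and 0.0179). SREK1, SON and SRRM1, proteins with arginine and serine repeats, had log2 fold changes of -0.09, -0.08 and -0.09 (FDR 0.00676, 0.0132 and 0.0155). SRSF8, a retrogene related to SRSF2, did not pass (log2 fold change -0.17, FDR 0.0847). SRSF12 was too low to be tested, with 1 to 3 counts in si-CN and 5 to 6 counts in si-N6AMT1.

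The hnRNP genes, which often oppose SR proteins at exons, had 10 lower and 1 higher of 26, and the median log2 fold change was -0.04. PTBP3, a relative of the polypyrimidine tract binding protein, had a log2 fold change of -0.39, PCBP1 of -0.27 and HNRNPUL1 of -0.16 (edgeR quasi-likelihood test, FDR 1.44e-11, 2.88e-08 and 4.13e-05), while HNRNPH3 rose by 0.07 (FDR 0.0441). In both DESeq2 fits, without a filter, with the replicate block and with any library but si-CN replicate 1 left out, 0 hnRNP genes were higher. Of 36 core spliceosome genes 8 were higher and 6 lower. Those with the smallest FDR were SF3A2, SNRPF and SNRPG, with log2 fold changes of 0.22, 0.15 and 0.17, and SF3B4, PRPF8 and SF3A3, with -0.22, -0.15 and -0.11. Of 10 mRNA export adaptors, DDX39B rose by 0.11 and FYTTD1 fell by 0.28 on the log2 scale (FDR 0.000542 and 5.33e-06). Of 14 NMD core factors 4 were lower, among them CASC3, SMG1 and UPF3B with log2 fold changes of -0.12, -0.10 and -0.11 (FDR 0.00348, 0.00741 and 0.0307). In the reported edgeR fit 0 NMD factors were higher, also 0 at an unadjusted p under 0.05 and 0 in DESeq2. Without si-N6AMT1 replicate 1, 1 NMD factor was higher in edgeR. The shares for these lists were not compared with that of the SR genes by a test.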

How the data were processed

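The values the authors deposited are estimated counts (expected counts) per gene in whole numbers. Per the paper's methods and the labels, reads of stranded mRNA libraries were trimmed with Trim Galore, assigned to GENCODE transcripts (hg19) with kallisto v0.46.0 and summed per gene. Of 62438 identifiers, 62149 matched a symbol in GENCODE on GRCh37.

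Counts were tested in edgeR v4.0.16 (R v4.3.3), with a minimum count of 10 in its expression filter, TMM scaling and the quasi-likelihood test over all 6 libraries with no covariate. P-values were adjusted by the Benjamini-Hochberg method over all 17320 genes tested (FDR). Standard errors were derived from the log2 fold change and its F statistic. Intervals cover the spread between libraries. At 2534 to 6002 counts, counting error alone is 1.99% to 1.29% of an SR gene's count. The median SD between replicates of an SR gene, 1.56% of the mean, lay within that range. The intervals may therefore hold little variation between cultures. The procedure was tested on simulated counts of this comparison over 17058 genes, where it recovered 86.0% of the genes changed by 1.5-fold with 6.01% false calls. The simulation gave all genes a common dispersion. Its changes were larger than that of any SR gene, so recovery and false calls at smaller changes were not measured.

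TPM was estimated from the length of GENCODE reference transcripts. Alternatives, with limma v3.58.1 and DESeq2 v1.42.0, are given in the closing section. The SR genes and the lists were chosen with earlier results of these data known. The related genes named are up to 3 with the smallest FDR in each direction, with further ones named where said. Pairs of libraries within a group differed by 1.35 to 1.77 in chi-square per degree of freedom and between groups by 6.97 to 7.92, so none was counted as a duplicate. Protein sequences were not analysed here, and 1 luminal marker is not reported here and is left out of the marker values.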

Additional observations from a re-analysis of the deposited data

How the results depend on the processing

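Of the SR genes, SRSF5 passed in all 17 alternatives, SRSF10 in 16 and SRSF1 in 15. DESeq2 on all genes with a count and the addition of same-strand overlapping counts left 1 SR gene higher, and the replicate block with GC correction left 0 lower (0 by this edgeR fit). Leaving out 1 library at a time kept 2 higher and 1 lower. SRSF7 turned positive with the GC correction with the block (0.0210) and without it (0.0210), and without si-N6AMT1 replicate 1 (0.0129) or si-CN replicate 1, with -0.0168 to 0.0162 over the libraries left out. SRSF9 turned negative with no filter (-0.000922), with overlapping counts added (-0.00215), with the GC correction with the block (-0.0176) and without it (-0.0175), and without replicate 3 of si-N6AMT1 (-0.0131) or of si-CN, with -0.0170 to 0.0185 over the libraries left out. Neither passed in any. The summed TPM of the SR genes in si-CN was 1578.2 with reference lengths, 1524.3 with median and 1415.6 with longest lengths. With any protein-coding transcript, 3 of 10 SR genes held the UTR string against 26.3% of genes.

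Numbers of genes called in the related lists moved as follows, and the cause was not tested. In DESeq2 on all genes with a count, 796 of all genes were higher and 1136 lower, and on the highest genes 942 and 1270 (leaving out 1 library, 1304 to 1537 and 1563 to 1825). For the SR-like list these DESeq2 fits gave 1 higher each and 2 and 3 lower, for the kinases and importins 0 higher each and 2 and 3 lower, and for the hnRNP genes 0 higher each. For the core spliceosome they gave 4 higher each and, on all genes, 3 lower, and for the NMD factors 2 lower each. Without a filter, 0 kinases and importins and 0 hnRNP genes were higher. With mitochondrial genes left out of library sizes, 2 hnRNP genes and 2 export adaptors were higher. With the replicate block, 1 SR-like gene, 0 kinases and importins and 0 hnRNP genes were higher, and 4 kinases and importins lower. With the block and GC correction, 3 kinases and importins and 2 NMD factors were lower and 2 export adaptors higher, the latter also without the block. Leaving out 1 library gave 1 to 2 SR-like genes higher and 2 to 5 lower, 0 to 1 kinases and importins higher and 3 to 6 lower, 0 to 2 hnRNP genes higher, 5 to 9 spliceosome genes higher, 1 to 2 export adaptors higher, and 0 to 1 NMD factors higher and 1 to 3 lower. Each of the 6 libraries moved at least 1 of these counts by over 1.5 times when left out. Same-numbered libraries of the groups did not deviate together (correlations -0.0422 to 0.00997), which gave no sign that the numbers pair the samples. Deviations within a group were small and held much counting error, so this check cannot exclude a pairing.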
